A study of Mus musculus with 2 samples.

Results

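The primitive streak and the caudal epiblast depend on a set of transcription factors and RNA-binding proteins. The levels of 9 such regulators were compared between FACS-sorted left–right organizer (LRO) cells of the mouse embryo and sorted non-LRO cells. The genes were *Mixl1*, *Eomes*, *Evx1*, *Nkx1-2*, *Sp5*, *Sp8*, *Sall4*, *Lin28a* and *Lin28b*. They were chosen by symbol, and 9 of 9 were found among the 17586 gene symbols of the deposited table, with 12 of its 27606 transcripts. The RNA came from *FOXJ1-EGFP* embryos on a C57BL/6 x 129 SvEv background with 0 to 4 somites, and both groups carry the transgene. GFP-positive cells made up the LRO library and GFP-negative cells the non-LRO library. Micro-dissection to enrich for LRO cells and their surroundings came before the sort, and the FOXJ1 promoter drives the reporter that was sorted on. Each library was 1 pool of cells from several embryos, and the pools came from separate sets of embryos. Since each group had 1 library, the conditions could not be tested against replicate spread, and every difference is one between these 2 libraries.

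The primitive streak is the furrow at the posterior end of the embryo where epiblast cells leave to become mesoderm and endoderm. Nodal and Wnt signals induce it, and T-box and homeobox factors carry those signals into mesendoderm fate. After gastrulation its remnant, the caudal epiblast, holds neuromesodermal progenitors that extend the trunk under Wnt and FGF signals. In the mouse the LRO lies at the anterior end of the streak, directly next to these caudal cells.

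Transcripts took 16672836 reads of the LRO library and 13418774 of the non-LRO library. LRO markers were high in the LRO library, with 7 of 7 called higher, among them *Foxj1* (194 against 4 reads), *Shh* (731 against 9) and *Noto* (307 against 0). *Foxj1* is the gene behind the sort, so its value is a check of the sort. Markers of extraembryonic endoderm and allantois were lower in the LRO library, 3 of 3 each, with *Afp* and *Hoxa11* at 0 LRO reads but *Ttr* at 154 against 587. The embryonic globin genes *Hba-x* (3 against 25316 reads) and *Hbb-bh1* (1 against 9883) were lower as well. For well-read genes, those with at least 50 reads in both libraries (9894 genes), the median log2 ratio of LRO to non-LRO was -0.31, so ratios scaled to the library totals sit below 1 for most genes. Ratios below are scaled to those totals, with an exact 95% interval for counting error only. Values relative to the median of well-read genes are given where they matter.

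The 9 regulators differed widely in level. In RPKM, which is the authors' read level scaled to transcript length and library total, *Lin28a* was the highest of them in the LRO library at 129 RPKM, above 98.9% of all gene symbols there. *Sall4* followed at 42.2 RPKM, *Lin28b* at 29.8 RPKM and *Nkx1-2* at 15.6 RPKM. *Sp5*, *Mixl1*, *Evx1* and *Sp8* lay at 5.45, 4.76, 1.42 and 1.34 RPKM, and *Eomes* was last at 0.0178 RPKM. The order in the non-LRO library was led by the same pair, *Lin28a* at 144 RPKM and *Sall4* at 45.9 RPKM, and *Eomes* was again last. *Nkx1-2* came next there at 37.3 RPKM, ahead of *Lin28b* at 20.0 RPKM. *Evx1*, at 3.75 RPKM in the non-LRO library, stood ahead of *Sp5* (2.36 RPKM) and *Mixl1* (2.24 RPKM) there, and behind both in LRO cells. Counting error did not separate *Sp5* from *Mixl1* in either library (ratio of levels 1.14, 0.984 to 1.33, in LRO cells and 1.06, 0.823 to 1.36, in non-LRO cells), nor *Evx1* from *Sp8* in LRO cells (1.06, 0.844 to 1.33). The other neighbours in each order differed beyond it.

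**Figure D1:**
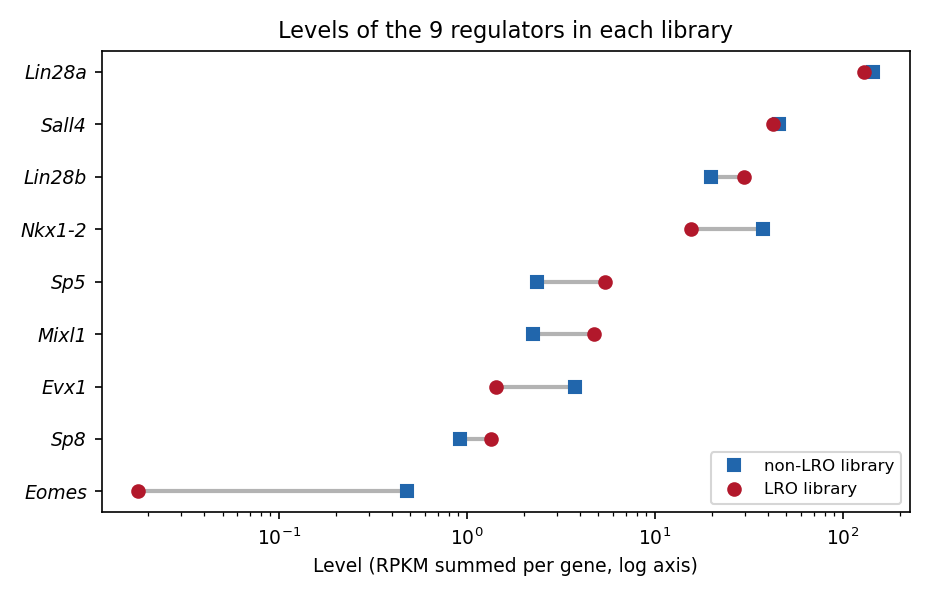
Level of each of the 9 regulators in RPKM on a log axis, with 1 point per library (circle, LRO; square, non-LRO) and a line joining the libraries. *Lin28a* and *Sall4* sit at the top with nearly equal points, and *Eomes* falls from 0.481 RPKM in the non-LRO library to 0.0178 RPKM in the LRO library.

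The size rule called a gene higher in the LRO library if its whole interval lay above 2, and lower if the whole interval lay below 0.5. By this rule 3 of 9 regulators were lower (*Eomes*, *Evx1* and *Nkx1-2*), against 12.3% of all genes, and 0 of 9 were higher, against 3.97%. The other 6 were neither, and of these *Mixl1*, *Sp5*, *Sp8* and *Lin28b* had intervals above 1 while *Sall4* and *Lin28a* had intervals just below 1. The median log2 ratio of the 9 was -0.12, beside -0.42 over all genes. The calls near the limits turned on the scaling. With TMM factors, which centre the ratios of most genes near 1, 2 of 9 were higher (*Mixl1* and *Sp5*, background 6.45%) and 1 was lower (*Eomes*, background 7.89%).

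**Figure D2:**
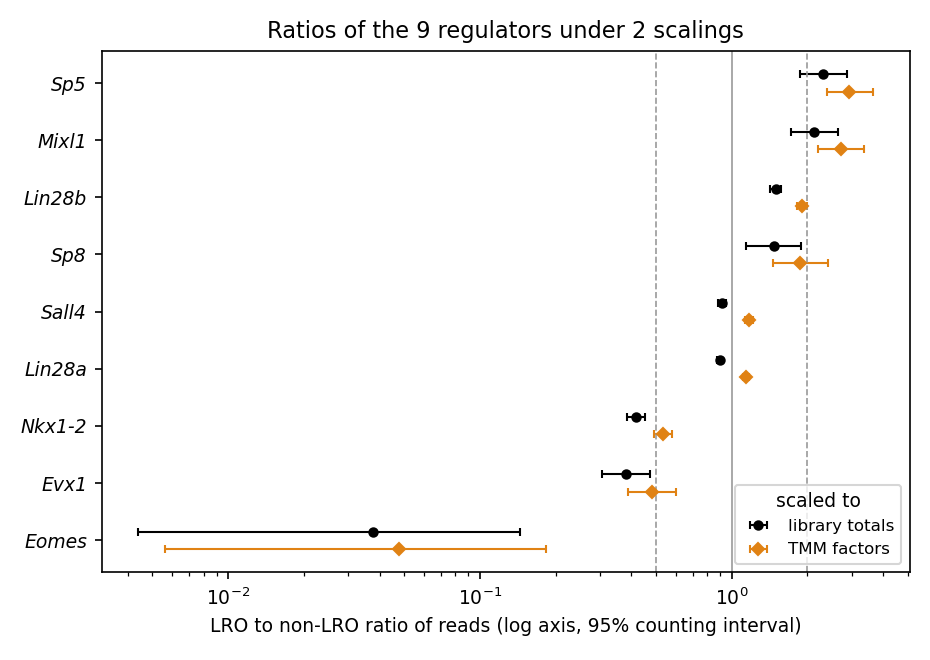
LRO to non-LRO ratio of reads for the 9 regulators on a log axis, with 95% counting intervals, scaled to library totals (black circles) or with TMM factors (orange diamonds). The dashed lines mark ratios of 0.5 and 2, the solid line marks 1, and only the interval of *Eomes* lies wholly below 0.5 under both scalings, at ratios of 0.0375 and 0.0477.

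Among the mesendoderm factors, the homeobox gene *Mixl1* and the T-box gene *Eomes* parted ways. *Mixl1*, a Nodal-responsive factor of the streak that acts in endoderm and mesoderm formation, had 330 LRO reads and 125 non-LRO reads. It was the more abundant in LRO cells, at a ratio of 2.13 (95% interval 1.73 to 2.64), which did not pass the size rule. Relative to well-read genes the ratio was 2.63 (2.13 to 3.26), and it exceeded that of 96.9% of them. *Mixl1* lay on chromosome 1 at 182623179 to 182627166, minus strand, in the coordinates of the deposited table, which are of a build older than GRCm38.

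*Eomes*, the T-box factor that directs definitive endoderm and cardiac mesoderm during gastrulation, had 2 LRO reads and 43 non-LRO reads. It was nearly lacking in the LRO library, 26.7-fold lower (6.95 to 227). It was the least abundant of the 9 in both libraries, so the size of the fold is poorly fixed, and it has under 50 reads over both. The study gives fewer cells and less RNA for the LRO pool than for the non-LRO pool. In the LRO library 15354 symbols had 1 or more reads, against 16787 in the non-LRO library. Loss of low-level transcripts at the smaller input is not covered by any interval here and was not tested. Both annotated transcripts of *Eomes* (chromosome 9, 118387307 to 118395251, plus strand) were lower in value. NM_001164789 had 0 against 29.4 reads, with an upper bound of 0.109 for its ratio, and NM_010136 had 2.01 against 13.8. *Tbr1*, the measured paralog of *Eomes* and a factor of cortical neurons, had 0 against 8 reads, with an upper bound of 0.472 for its ratio, and its call ended with TMM factors. Over the 12 transcripts of the regulators, 3 were lower (1 of *Eomes*, and those of *Evx1* and *Nkx1-2*), against 13.9% of all transcripts, and 0 were higher, against 5.11%.

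The homeobox genes of the posterior streak and caudal epiblast were both lower in the LRO library. *Nkx1-2*, a marker of the caudal lateral epiblast and its neuromesodermal progenitors, had 899 LRO reads and 1734 non-LRO reads. It was 2.39-fold lower (2.21 to 2.60) but stayed well expressed in LRO cells, above 89.9% of gene symbols in RPKM. *Evx1*, an even-skipped homolog that responds to Wnt and BMP signals in the posterior streak, had 124 LRO reads and 263 non-LRO reads. It was 2.63-fold lower (2.12 to 3.28), close to the value of *Nkx1-2*. Both calls ended with TMM factors, at ratios of 0.484 for *Evx1* and 0.532 for *Nkx1-2*, and that of *Evx1* also without the abundant RNAs *Rn45s* and *Lars2* (ratio 0.404). *Nkx1-2* lay on chromosome 7 at 139787922 to 139791321, minus strand, and *Evx1* on chromosome 6 at 52263492 to 52268373, plus strand.

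The value of *Evx1* has a further limit. The antisense transcript *Evx1os*, looked at after the values were seen, overlaps *Evx1* in the table on the other strand and had 62 LRO reads against 521 non-LRO reads (ratio 0.0959, 0.0725 to 0.125). The kit does not keep strand, so reads of *Evx1* and *Evx1os* cannot be told apart where they overlap. The GENCODE M21 annotation places further opposite-strand transcripts over *Eomes*, *Nkx1-2*, *Sall4* and *Lin28a*, and a same-strand model of *Fgfr2* over *Nkx1-2*. These counts may share the limit. Overlap was taken over whole gene spans, the further opposite-strand transcripts are not in the deposited table, and whether reads are shared was not tested. Presomitic mesoderm, the tissue that caudal progenitors feed, had 2 of 8 markers lower (*Tbx6* and *Msgn1*) and 0 higher, against 12.3% and 3.97% of all genes. Their summed level was 37.1 RPKM for LRO and 89.3 RPKM for non-LRO cells, or 25.8 and 45.8 RPKM without *Msgn1*. There were 0 markers at 0 reads. *Hes5* (ratio 1.36, 0.918 to 2.05) and *Lfng* (1.15, 0.948 to 1.41) were above 1 in value, with intervals that held 1. Markers of the caudal epiblast itself had 1 of 6 higher (*T*) and 1 lower (*Nkx1-2*), against the same shares of all genes. *Nkx1-2* is also 1 of the 9 regulators, so its own value, 15.6 against 37.3 RPKM, is part of these counts and sums. *Wnt3a*, called neither, was above 1 at a ratio of 1.85 (1.36 to 2.53). *Cdx1* (0.669) and *Grsf1* (0.587) were below 1 in value. *Sox2* had a ratio of 0.806, with an interval that held 1 (0.595 to 1.09). The summed levels of the 6 markers were 123 and 135 RPKM, and 67.1 and 119 RPKM without *T*, which node and notochord also express. Their part in the values of *Evx1* and *Nkx1-2* was not tested. In pooled cells, fewer cells of a type and less RNA per cell cannot be told apart.

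The zinc finger genes *Sp5* and *Sp8* were more abundant in the LRO library. Both are targets of canonical Wnt signalling in the streak and tail bud, where they act together with T. *Sp5* had 346 LRO reads and 121 non-LRO reads, a ratio of 2.31 (1.87 to 2.86), the highest of the 9. It did not pass the size rule, and passed it with TMM factors at 2.94 (2.38 to 3.64). *Sp8* had 182 LRO reads and 100 non-LRO reads, a ratio of 1.47 (1.14 to 1.89), and was called under none of the settings tried. *Sp5* lay on chromosome 2 at 70312980 to 70315784, plus strand, and *Sp8* on chromosome 12 at 120084802 to 120091052, plus strand.

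The other members of the Sp family are mostly general factors that bind GC boxes. *Sp1*, *Sp2*, *Sp3* and *Sp4* had ratios of 0.997, 0.887, 0.725 and 0.962, in a narrow range below those of *Sp5* and *Sp8*. Relative to well-read genes these ratios were 1.23, 1.10, 0.896 and 1.19, so the side of 1 turned for all but *Sp3*. *Sp6*, known from skin and tooth, was 2.90-fold lower (2.35 to 3.61). TMM factors ended this call. *Sp7*, the osteoblast factor osterix, had 74 against 20 reads and a ratio of 2.98 (1.80 to 5.16), called with TMM factors. *Sp9* had 1 against 2 reads, which fixes no ratio.

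Promoters of *Sp5*, *Evx1*, *Nkx1-2* and *Eomes* are shown because these genes lay at both ends of the order of ratios. The sequences are from RefSeq (GRCm38.p6), 250 bases before to 50 bases after the annotated start, and 7 of the 9 regulators matched an entry. Capitals mark exact matches on either strand to TCAAAG (the core bound by TCF/LEF factors of the Wnt pathway), AGGTGTG (a T-box half-site), AATNCACA (FOXH1, a partner of Nodal signalling) or GGGCGG (a GC box, bound by Sp factors), and the matches in these windows do not overlap one another.
Sp5, chr2:70474673-70474972, plus strand: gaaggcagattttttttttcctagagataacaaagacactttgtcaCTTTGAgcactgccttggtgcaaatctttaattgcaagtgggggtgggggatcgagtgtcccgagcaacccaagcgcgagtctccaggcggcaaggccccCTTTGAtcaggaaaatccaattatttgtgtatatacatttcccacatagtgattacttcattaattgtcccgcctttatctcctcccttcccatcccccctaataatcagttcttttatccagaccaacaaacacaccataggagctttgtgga
Evx1, chr6:52313248-52313547, plus strand: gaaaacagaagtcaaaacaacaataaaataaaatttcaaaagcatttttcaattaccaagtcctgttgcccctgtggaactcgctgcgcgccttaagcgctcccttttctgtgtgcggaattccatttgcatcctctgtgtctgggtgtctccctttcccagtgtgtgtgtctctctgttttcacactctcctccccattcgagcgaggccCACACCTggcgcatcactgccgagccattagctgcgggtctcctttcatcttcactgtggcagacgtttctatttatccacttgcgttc
Nkx1-2, chr7:132599588-132599887, minus strand: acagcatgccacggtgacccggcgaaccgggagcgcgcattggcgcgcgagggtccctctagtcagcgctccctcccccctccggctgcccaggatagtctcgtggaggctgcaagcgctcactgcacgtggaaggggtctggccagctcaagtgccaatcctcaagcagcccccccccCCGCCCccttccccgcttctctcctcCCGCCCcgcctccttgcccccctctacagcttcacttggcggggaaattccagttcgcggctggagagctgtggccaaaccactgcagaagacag
Eomes, chr9:118477939-118478238, plus strand: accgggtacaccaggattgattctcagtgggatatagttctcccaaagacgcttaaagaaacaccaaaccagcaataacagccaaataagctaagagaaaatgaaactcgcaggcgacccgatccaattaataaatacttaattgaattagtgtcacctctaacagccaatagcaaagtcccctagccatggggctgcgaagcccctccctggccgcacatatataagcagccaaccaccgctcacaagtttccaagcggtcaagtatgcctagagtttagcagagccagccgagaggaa
The *Sp5* window held 2 TCF/LEF cores, and 16.0% of all 32851 promoter windows held at least 1. The *Evx1* window held 1 T-box half-site, a match found in 5.84% of windows. The *Nkx1-2* window, at 67.3% G and C, held 2 GC boxes, and 35.7% of windows held at least 1. No match to the letters searched was in the *Eomes* window, and FOXH1 letters, found in 3.60% of windows, were in none of these 4. Windows not shown held such letters too. That of *Lin28a* held a TCF/LEF core and a GC box, and those of *Sp8* held a TCF/LEF core, T-box half-sites and a GC box. The *Lin28b* window held no match. A match is a description of the letters and not of a bound site.

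*Sall4*, a zinc finger factor of pluripotent and caudal progenitor cells, was almost equal in the libraries. It had 6468 LRO reads and 5681 non-LRO reads, a ratio of 0.918 (0.886 to 0.951). Its level stood above 96.7% of gene symbols in LRO cells and 96.4% in non-LRO cells. Relative to well-read genes the ratio was 1.13, so the direction turned with the scaling. Nearly all reads were assigned to the long transcript NM_175303, at 99.3% for LRO and 99.7% for non-LRO cells. The shorter NM_201395 had 47.4 against 15.5 reads, a ratio of 2.37 (1.32 to 4.47) that did not pass the size rule, and reads shared by transcripts were divided by the authors' software. *Sall4* lay on chromosome 2 at 168573832 to 168592702, minus strand.

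Its paralogs were not alike. *Sall1*, a factor of kidney and limb, had 5472 against 2946 reads and a ratio of 1.497 (1.43 to 1.57). *Sall2* had 1888 against 707 reads and a ratio of 2.15 (1.97 to 2.35), called with TMM factors. *Sall3* had 1276 against 1369 reads and a ratio of 0.751 (0.696 to 0.811). Set against *Sall4* within each library, *Sall1* was 1.63 times (1.54 to 1.73) and *Sall2* 2.35 times (2.14 to 2.58) as abundant in the LRO library as in the non-LRO library. Of the 17 genes in the list of *Sall* paralogs, the NuRD chromatin complex that Sall4 recruits, and the ubiquitin ligase receptor *Crbn*, 0 were higher and 0 lower, against 3.97% and 12.3% of all genes, with a median log2 ratio of -0.10 beside -0.42 over all genes. *Sall2* was the 1 called with TMM factors.

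The RNA-binding proteins *Lin28a* and *Lin28b* block maturation of the let-7 microRNAs in early embryonic cells. *Lin28a* had 13642 LRO reads and 12271 non-LRO reads, a ratio of 0.896 (0.875 to 0.918), or 1.11 (1.08 to 1.14) relative to well-read genes. Its direction therefore turned with the scaling, and the libraries were near equal under either. *Lin28b* had 4881 LRO reads and 2632 non-LRO reads, a ratio of 1.49 (1.43 to 1.57), or 1.85 (1.76 to 1.94) relative to well-read genes. It was more abundant in LRO cells under each scaling tried, yet short of the size rule. *Lin28a* exceeded *Lin28b* in RPKM by 4.34-fold in LRO cells and by 7.24-fold in non-LRO cells. *Lin28a* lay on chromosome 4 at 133559245 to 133574732, minus strand, and *Lin28b* on chromosome 10 at 45096425 to 45190008, minus strand.

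The hairpins that Lin28 proteins recognise are shown to make the target of these genes concrete. Lin28 zinc knuckles bind a GGAG near the end of the precursor loop, and of 12 hairpins of the let-7 family in RefSeq (GRCm38.p6) 9 hold GGAG. Capitals mark GGAG in the hairpins of *Mirlet7g* (chr9:106178840-106178927, plus strand) and *Mirlet7i* (chr10:122985640-122985724, minus strand), and the hairpin of *Mirlet7b* (chr15:85707319-85707403, plus strand) is given as 1 without it.
Mirlet7g: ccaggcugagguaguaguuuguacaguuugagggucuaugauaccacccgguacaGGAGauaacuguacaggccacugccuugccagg
Mirlet7i: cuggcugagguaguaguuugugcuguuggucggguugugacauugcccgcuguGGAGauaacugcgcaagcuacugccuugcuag
Mirlet7b: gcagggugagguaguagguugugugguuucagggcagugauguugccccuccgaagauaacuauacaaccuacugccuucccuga
The let-7 RNAs themselves were not analysed here. Of 18 measured genes that process let-7 or are textbook targets of it, 1 was higher and 1 lower, against 3.97% and 12.3% of all genes, and the median log2 ratio was -0.01 beside -0.42. Of the 16 called neither, 7 had intervals above 1 and 7 had intervals below 1, counts that hold for library totals and depend on the scaling. The higher gene was *Mycn*, a proliferation factor, at a ratio of 2.25 (2.09 to 2.42). The lower gene was *Dgcr8*, the RNA-binding partner of Drosha in microRNA processing, at 2.62-fold lower (2.35 to 2.91). TMM factors ended this call. The let-7 target *Hmga2*, a chromatin protein of stem and progenitor cells named after its value was seen, had 14562 against 5738 reads and a ratio of 2.05 (1.98 to 2.11), just short of the rule and called with TMM factors. Further targets, named in the same way, lay on both sides of 1. *Ccnd1* (1.46), *Trim71* (1.39), *Igf2bp1* (1.22), *Igf2bp2* (1.17), *Igf2bp3* (1.12) and *Arid3a* (1.07) had ratios above 1. *Myc* (0.514), *Cdc25a* (0.749), *Ccnd2* (0.842) and *Hmga1* (0.899) had ratios below 1. Relative to well-read genes *Ccnd2* was at 1.04 and *Hmga1* at 1.11, so their direction turned with the scaling.

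Germ cells also express *Sall4* and *Lin28a*, so their markers are given here. Of 6 measured primordial germ cell markers 1 was higher (*Prdm1*, which other tissues share) and 1 lower (*Pou5f1*), against 3.97% and 12.3% of all genes. With TMM factors *Pou5f1* lost its call and *Ifitm3* was called higher. Their summed levels were 48.2 RPKM for LRO and 21.1 RPKM for non-LRO cells, and 1.74 and 5.27 RPKM without *Prdm1* and *Ifitm3*. These 2 were left out together after the values were seen, and *Ifitm3* alone had 26.6 against 14.2 RPKM. Most of the remaining sum was *Pou5f1*, at 1.22 against 4.59 RPKM, so the sums give no common direction. *Dnd1* had 21 against 22 reads, with an interval that held 1 (0.403 to 1.47). The germ cell genes *Prdm14* (0 against 4 reads) and *Nanos3* (1 against 0 reads) were at or near 0 in both libraries. Their part in the values of *Sall4* and *Lin28a* was not tested.

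The wider set of primitive streak and mesendoderm genes split in both directions, like *Mixl1* and *Eomes*. Of 29 genes, 5 were higher, 9 lower and 15 neither, against 3.97% higher and 12.3% lower over all genes, while the median log2 ratio of -0.39 was near that of all genes (-0.42). The higher genes were the Nodal co-receptor gene *Tdgf1* (ratio 28.6), *Foxa2* (12.2), a factor of node and endoderm, the Nodal antagonist gene *Lefty2* (10.6), *Nodal* itself (4.55) and *T*. Other genes of the Nodal pathway lay on both sides of 1 in value. *Smad3* had a ratio of 1.73 (1.58 to 1.89), while *Cfc1* (0.580), *Foxh1* (0.695) and *Smad2* (0.851) were below 1. Relative to well-read genes *Smad2* was at 1.05. *Lhx1*, a factor of axial mesendoderm, was lower (0.223). *T*, the T-box gene Brachyury of streak, node and notochord, had 3441 against 819 reads and a ratio of 3.39 (3.14 to 3.66). The 4 with the lowest upper bounds among the lower genes were *Mesp1*, *Fgf4*, *Cer1* and *Gata4*. *Mesp1*, a factor of nascent cardiac mesoderm, had 1 against 59 reads, and *Fgf4*, a streak signal, was 10.5-fold lower (5.06 to 25.4). *Cer1*, a Nodal antagonist of endoderm, was 5.95-fold lower (4.78 to 7.47), and *Gata4*, a factor of endoderm and cardiac mesoderm, was 5.38-fold lower (4.67 to 6.22). With TMM factors 6 were higher, *Smad3* being added, and 9 lower.

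Of 28 measured genes of the caudal epiblast and Wnt response, 1 was higher, 6 lower and 21 neither, against 3.97% higher and 12.3% lower over all genes. Their median log2 ratio was -0.53 beside -0.42. *Wnt8a*, a Wnt ligand of the posterior streak, had 3 against 91 reads, a ratio of 0.0266 (0.00538 to 0.0802). *Cdx4*, a posterior homeobox gene, was 11.2-fold lower (9.16 to 13.8), and the Eph receptor gene *Epha5* was 8.78-fold lower (6.26 to 12.6). *Cyp26a1*, which breaks down retinoic acid in the tail bud, was 2.87-fold lower (2.28 to 3.63). The higher gene was *Spry2*, a feedback inhibitor of FGF signalling, at a ratio of 2.36 (2.05 to 2.72). With TMM factors 3 of the 6 lower calls remained, those of *Cdx2*, *Cyp26a1* and *Pou5f1* having ended. The general Wnt target *Axin2*, named after its value was seen, had a ratio of 0.795 (0.744 to 0.849), beside 2.31 for *Sp5*.

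**Figure D3:**
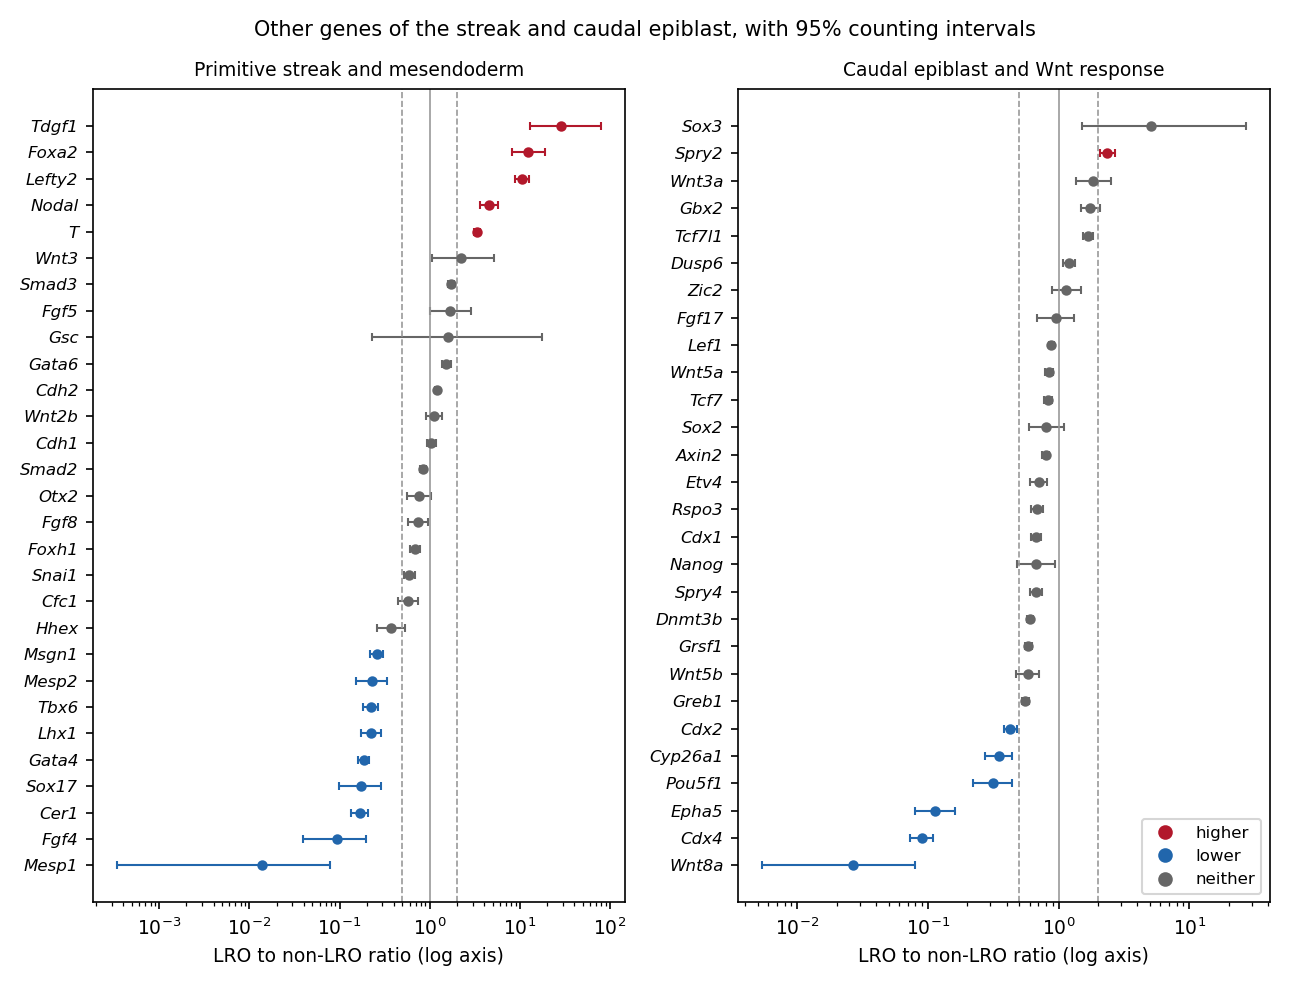
LRO to non-LRO ratios of 29 other streak and mesendoderm genes (left) and 28 caudal epiblast and Wnt response genes (right), on log axes with 95% counting intervals, coloured by the size rule. The streak genes reach from a ratio of 28.6 for *Tdgf1* to 0.0137 for *Mesp1*, and most caudal genes lie between 0.5 and 2.

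Pairs of genes can be compared within each library, where the scaling drops out. The 12 pairs computed, and which gene came first, were chosen after the values were seen, so the side of 1 on which a pair lies is a description. *Lin28b* was 1.67 times (1.58 to 1.76) as abundant relative to *Lin28a* in the LRO library as in the non-LRO library. *Sp5* was 1.57 times (1.14 to 2.16) as abundant relative to *Sp8*. *Mixl1* was 5.09 times (4.08 to 6.35) as abundant relative to *Nkx1-2*, and *T* was 8.10 times (7.25 to 9.05). *Mixl1* against *Eomes* gave 56.8 (14.3 to 487). The interval for *Evx1* against *Nkx1-2* held 1, at 0.909 (0.724 to 1.14), as did that for *Sall4* against *Lin28a* at 1.02 (0.981 to 1.07). The remaining pairs were *Mycn* against *Myc* at 4.37 (3.89 to 4.90), *Sp5* against *Axin2* at 2.90 (2.33 to 3.60) and *Hmga2* against *Hmga1* at 2.28 (2.18 to 2.38).

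**Figure D4:**
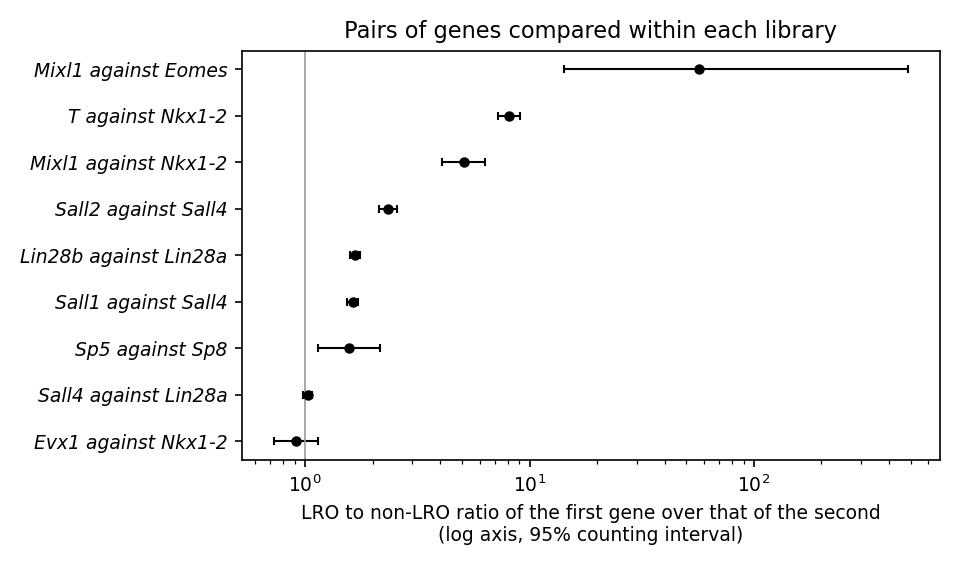
LRO to non-LRO ratio of the first gene of a pair over that of the second, on a log axis with 95% counting intervals, a quantity that no scaling changes. For 9 of the 12 pairs computed, the point shows the value and the solid line equal change. The intervals of *Evx1* against *Nkx1-2* (0.909) and *Sall4* against *Lin28a* (1.02) cross the line, and the order of genes in a pair was set after the values were seen.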

How the data were processed

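RNA of 2 libraries was measured, 1 per group, from amplified double-stranded cDNA of a kit that does not keep strand. Per the labels, the authors aligned reads with TopHat and quantified them with Partek Genomics Suite 6.6. The deposited estimated counts are reads per RefSeq transcript and are not always whole numbers. Deposited RPKM values were scaled by the authors to transcript length and library total. Transcript lengths were deposited as another unit. Columns of the authors' own comparison hold chi-square values and p-values for expression and splicing and were not used, nor were 4 columns of junction and incompatible RPKM.

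The column of the LRO library carries no label of a sample. Its group follows from the table holding 1 other library, and from the study giving these reads for GFP-positive cells. The labels name mm10, yet transcripts on chromosome 1 end at up to 197002910, beyond the last GENCODE M21 gene end of 195323493, and 0 of 9 members share their GRCm38 start, so deposited positions were kept as an older build.

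Estimated counts were summed per symbol and rounded. Library totals behind RPKM were recovered as 30277869 (LRO) and 24407300 (non-LRO). Ratios had Clopper-Pearson 95% intervals (scipy 1.17.1). Reads of amplified cDNA can be copies of 1 molecule, so intervals cover counting error only and may be narrow. A floor of 3 reads equals 9.91e-06% (LRO) and 1.23e-05% (non-LRO) of these totals. List medians used a pseudocount of 1 read. Pairs used log (Woolf) intervals, or exact conditional ones below 50 reads. TMM factors came from edgeR 4.0.16. The size rule was tested on simulated data. The naming rule gave all members, their measured paralogs, and *Foxj1*, *Noto*, *Shh* and *T*. It also gave up to 4 called genes of each list in each direction with the bound farthest from 1. Further genes were named outside this rule, among them *Smad2*, *Smad3*, *Cfc1*, *Foxh1*, *Lhx1*, *Wnt3a*, *Sox2*, *Cdx1*, *Grsf1*, *Hes5* and *Lfng*. Members and lists were chosen with earlier results of these data known. Alternatives were 4 other scalings, fold bounds of 1.5 and 4, a 99% interval, at least 50 reads over both libraries, reads divided by 10, single transcripts, and pseudocounts of 0.5 and 5. Some marker values are not reported here. Intervals between neighbouring levels and marker sums without single genes were added after the values were seen.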

Additional observations from a re-analysis of the deposited data

How the results depend on the processing

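Counts of the 9 regulators and of 100 measured related genes were recomputed under each alternative. TMM factors gave 2 regulators higher and 1 lower, against 6.45% and 7.89% of all genes, and 11 related genes higher in place of 7. Scaling to the median of well-read genes also gave 2 regulators higher and 1 lower, against 6% and 8.21%. A fold bound of 1.5 gave 2 regulators and 14 related genes higher, against 7.06% of all genes. A fold bound of 4 gave 1 regulator lower, against 3.87% of all genes. It also gave 3 related genes higher, against 1.4%, and 7 lower in place of 18. Reads divided by 10 left 0 regulators and 8 related genes lower, against 1.67% of all genes. Taken singly, 11 transcripts of related genes were higher, against 5.11% of all transcripts. That count can hold a gene more than once. A fold bound changes counts by its construction. So does a scaling, which multiplies all ratios by 1 factor, and so do divided reads, which widen the intervals. Which scaling is the right one was not tested, nor was the cause of the change with single transcripts. Another 27 recomputed counts were within 1.5 times the reported count, some of them at that limit. Related genes called lower were 12 in place of 18 with TMM factors and with the median ratio, against 7.89% and 8.21% of all genes. With a fold bound of 1.5 they were 27, against 22% of all genes. Ratios of *Sall4* and *Lin28a* turned above 1 with TMM factors (1.17 and 1.14) and with the median ratio (1.13 and 1.11). *Evx1* lost its call under 6 of 9 settings and *Nkx1-2* under 4 of 9. *Eomes* lost its call under 1 of 8, with reads divided by 10. Pseudocounts of 0.5 and 5 left the sign of each list median as it was. No paired analysis was possible because 1 library stood for each group.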
